A study of Mus musculus with 24 samples.

Results

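The genes described here are those whose symbols mark them as parts of the cell cycle machinery: cyclins, cyclin-dependent kinases (Cdk) and their relatives, cell division cycle (Cdc) genes, E2F factors, Mcm, Bub, Aurora and Polo-like kinase genes. They were chosen by symbol alone, after the probes of an Illumina Mouse-6 bead array had been named by the NCBI gene ID in the target identifier, and Cdkn1a and Ccng1 were left out. The rule gave 76 probes of 48 genes, out of 46116 probes on the array, of which 9832 could be named with 8127 symbols. Of the 48 genes, 23 had more than 1 probe and none had more than 3. The label of the group is broader than its content: none of the 5 cell cycle kinases Cdk1, Cdk2, Cdk3, Cdk4 and Cdk6 was among the named probes, origin licensing was represented by Mcm7 and Cdc6, and several members share only the name (Cdc42 and its effectors, the tRNA-modifying enzyme Cdkal1, the membrane protein Cdcp1).

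Mice received γ-rays of 137Cs for 22 h a day over 485 days, and the question was which transcripts differ after irradiation at low dose rates. The groups were unirradiated controls, a low dose rate of 0.032 μGy/min (21 mGy in all), a mid dose rate of 0.65 μGy/min (420 mGy) and a high dose rate of 13 μGy/min (8000 mGy). Kidney and testis were removed straight after irradiation had stopped, and each group had 3 arrays per tissue, 24 arrays in all. The submitters' protocol gives 12 mice, 3 per group, and no label pairs kidney and testis arrays. Strain and age are not given in the sources used here, and whole organs were used, so that fewer cells of a type and less RNA per cell cannot be told apart.

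Cyclins bind and activate Cdks, which drive a cell through the cycle: D and E cyclins act in G1 and at entry into S phase, where Cdc6 and the Mcm helicase license and open replication origins, and B cyclins act at entry into mitosis. Cdc25 phosphatases switch the kinases on, Polo-like and Aurora kinases direct the mitotic spindle, and Cdc20 activates the anaphase-promoting complex (APC/C), which destroys cyclin B. Most cells of an adult kidney are out of cycle, whereas the testis holds germ cells that divide by mitosis and meiosis throughout adult life.

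The promoters of 5 members are shown because their probes were dimmer in kidney than in testis, as the tissue comparison gives, and because they span licensing, the G1/S switch and mitosis. Promoters came from RefSeq (GRCm38.p6), run from 250 bases before to 50 bases after the start of the gene, and were found for 41 of the 48 genes, Ccnd1 not among them. Capitals mark matches on either strand to 3 motifs: the core of the cell cycle homology region or CHR (TTTGAA, with TTCGAA as its other form), the CCAAT box (its own letters) and the E2F site (TTCCCGC, with TTGGCGC as its other form). A CCAAT box can overlap either of the others, as it does in Cdca8 and in Mcm7. All 5 promoters shown hold a CCAAT box and a CHR core or an E2F site. Some other members dimmer in kidney do not: Aurkc, Cdca7l and Cdkl2 hold CCAAT boxes alone, and Cdk20, Cdc34 and Cdc42ep3 hold no match.
Plk1, plus strand of chr7:122159185-122159484: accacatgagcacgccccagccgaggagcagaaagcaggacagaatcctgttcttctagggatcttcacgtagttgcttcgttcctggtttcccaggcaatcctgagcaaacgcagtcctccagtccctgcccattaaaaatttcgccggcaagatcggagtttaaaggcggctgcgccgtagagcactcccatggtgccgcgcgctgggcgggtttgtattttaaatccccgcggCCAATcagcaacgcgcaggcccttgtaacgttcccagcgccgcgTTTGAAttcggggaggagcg
Cdc20, minus strand of chr4:118437294-118437593: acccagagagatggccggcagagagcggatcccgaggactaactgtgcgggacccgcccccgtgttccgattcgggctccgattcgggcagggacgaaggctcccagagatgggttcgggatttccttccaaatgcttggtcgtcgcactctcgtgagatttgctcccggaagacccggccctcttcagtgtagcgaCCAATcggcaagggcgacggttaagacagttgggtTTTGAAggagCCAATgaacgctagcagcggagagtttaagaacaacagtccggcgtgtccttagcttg
Cdca8, minus strand of chr4:124936868-124937167: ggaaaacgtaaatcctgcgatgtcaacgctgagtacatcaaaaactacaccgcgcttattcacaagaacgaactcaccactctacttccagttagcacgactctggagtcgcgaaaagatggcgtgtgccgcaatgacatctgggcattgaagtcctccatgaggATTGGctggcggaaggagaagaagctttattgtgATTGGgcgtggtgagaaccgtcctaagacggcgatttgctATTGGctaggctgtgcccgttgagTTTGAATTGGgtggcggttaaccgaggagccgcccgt
Cdc25a, plus strand of chr9:109875329-109875628: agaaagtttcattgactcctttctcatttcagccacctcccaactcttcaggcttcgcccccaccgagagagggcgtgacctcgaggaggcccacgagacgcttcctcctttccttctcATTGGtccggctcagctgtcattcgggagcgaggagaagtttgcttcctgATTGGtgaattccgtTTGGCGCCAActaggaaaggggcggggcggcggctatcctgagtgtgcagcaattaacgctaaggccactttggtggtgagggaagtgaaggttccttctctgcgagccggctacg
Mcm7, minus strand of chr5:138171834-138172133: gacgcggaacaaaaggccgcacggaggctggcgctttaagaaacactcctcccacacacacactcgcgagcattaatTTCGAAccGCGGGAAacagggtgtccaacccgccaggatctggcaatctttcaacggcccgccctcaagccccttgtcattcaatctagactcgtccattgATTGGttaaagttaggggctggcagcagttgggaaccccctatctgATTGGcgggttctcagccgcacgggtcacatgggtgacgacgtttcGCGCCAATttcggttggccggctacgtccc
Over the first listed promoter of each of 27025 mouse genes, 19.4% held a CHR core, 37.9% a CCAAT box and 6.9% an E2F site. Among the 41 members the shares were 29.3%, 53.7% and 24.4%. Members brighter in kidney (9 promoters) held them in 22.2%, 55.6% and 22.2%, and members brighter in testis (15 promoters) in 33.3%, 66.7% and 33.3%. These are matches of letters in a window of 300 bases and not sites shown to be used.

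In kidney, 23 of the 76 probes (19 genes) were detected on all 12 arrays and 43 on none. In testis, 29 probes (25 genes) were above the noise limit of all 12 arrays and 23 above that of none. Kidney tests took probes with a detection score over 0.99 on 3 or more arrays and so held 32 member probes of 25 genes, and 56 probes of 42 genes entered the testis test. The 5 genes that entered no test were Ccnt2, Cdc42bpa, Cdk5rap2, Cdkn1b and E2f8. Kidney arrays detected 8879 to 10985 probes each, testis arrays had 12552 to 15792 probes above noise, and a member probe was read from a median of 42 beads (19 to 72) on a kidney array. Tissue labels were checked against marker genes. The summed signal of 7 nephron probes was 35940 to 49070 on kidney arrays and at most 338.1 on testis arrays, while 4 spermatid probes (Prm2, Odf2, Gapdhs) summed to at most 74.26 on kidney arrays and to 106700 to 129600 on testis arrays. Of the spermatogonial list, Zbtb16 and Gfra1 alone had a probe and lay near the noise limit, and no probe was named for the 11 meiotic genes of the list, so the dividing germ cells themselves were not marked here.

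In unirradiated mice Plk1, Cdc20, Aurkc, Cdca8, the G1/S phosphatase gene Cdc25a and the licensing genes Mcm7 and Cdc6 were lower in kidney than in testis, and Ccnd1, which encodes cyclin D1, was higher in kidney. By list, 2 of 2 licensing probes, 3 of 3 Cdca probes, 3 of 5 APC/C probes and 2 of 3 checkpoint and mitotic kinase probes passed, all lower in kidney. All 3 APC/C probes that passed were of the activator Cdc20, and the APC/C subunit genes Cdc26 and Cdc27 did not pass. Of 4 E2F factor probes 3 passed (E2f3 and E2f6), all higher in kidney. E2f3 and E2f6 probe 4070324 lost the call with each tissue normalized by itself. Other lists went both ways, with 3 higher and 1 lower of 5 G1 cyclin probes, 1 higher and 2 lower of 6 probes for Cdks outside the core cycle, and 7 higher and 4 lower of 15 probes with Cdc42 or other Cdc names. Aurkc, Cdca8, Cdca7l and Cdc6 were above noise on no control kidney array, and Ccnd1 probes 770309 and 3120576 on no control testis array. A probe above noise in 1 tissue alone entered the test through that tissue, so the filter set its side. Of 54 member probes tested, 38 (70.4%) passed an adjusted p of 0.05 in limma, 15 of them higher and 23 lower in kidney. Tissue differences were that common on the whole array, where 73.3% of 21059 probes passed, so the count itself says nothing particular about these genes. Kidney and testis were processed as separate sets, and tissue and set cannot be told apart. The median log2 difference (kidney minus testis) was +0.28 over all probes and −0.33 over the members. With each tissue normalized by itself the median over all probes was −0.97, and the split of the members called was 9 higher and 31 lower.

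**Figure D1:**
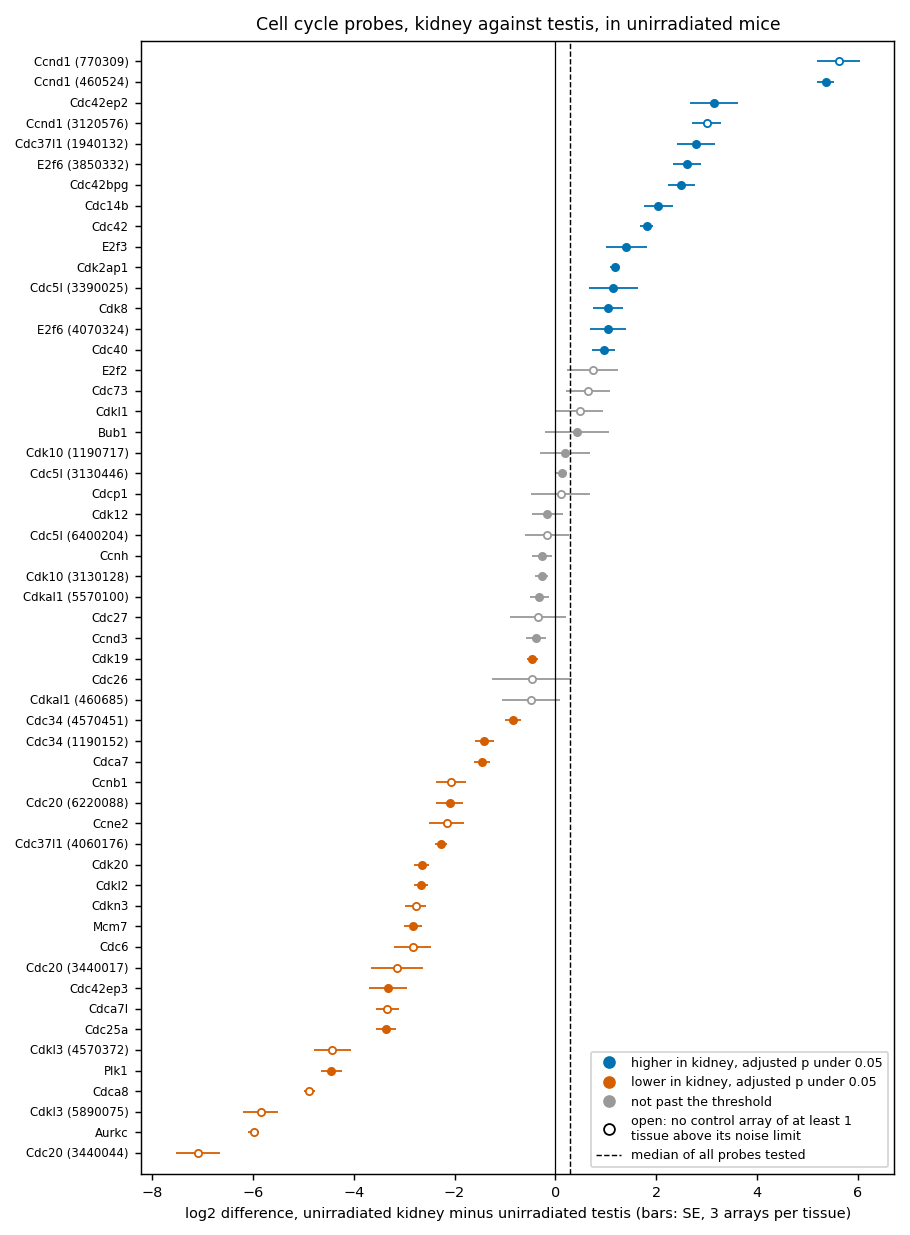
Log2 difference between unirradiated kidney and unirradiated testis for the 54 member probes tested, with the limma SE, sorted from higher in kidney to lower in kidney. Filled points were above noise on at least 1 control array of each tissue, and the dashed line is the median of all probes (+0.28); Ccnd1 stands at the top and Cdc20, Aurkc and Cdkl3 at the bottom.

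Among the mitotic regulators, Plk1, the Polo-like kinase that acts from mitotic entry to cytokinesis, had signals of 71.72, 83.34 and 120.7 on the control kidney arrays, against 5483, 5174 and 4769 on the control testis arrays. The groups lay far apart, with a log2 difference of −4.45 ± 0.21 (SE; adjusted p = 2.83e-13). A second Plk1 probe, 2640121, was too dim to enter the tissue test. Cdc20 gave 14.14, 11.49 and 20 in kidney, under the noise limit of every array, and 4762, 4685 and 4151 in testis. Its kidney level is only a bound, so Cdc20 was at least 39-fold lower in kidney, where a bound sets the bright group against the lowest signals above noise. Of the other Cdc20 probes, 3440017 was at least 4.68-fold lower in kidney, where it too was below noise on all control arrays. Probe 6220088 differed by −2.10 ± 0.27 on the log2 scale (adjusted p = 1.11e-06).

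Aurkc, the Aurora kinase best known from meiotic divisions of germ cells, read −29.52, −15.79 and −20.1 in kidney, below background, against 1680, 1901 and 1447 in testis. It was at least 14.3-fold lower in kidney. Cdca8, which encodes borealin of the chromosomal passenger complex, was at least 6.66-fold lower in kidney. Its signals were −17.62, −10.77 and −14.71 in kidney and 733.8, 869.2 and 702.6 in testis. All control kidney values of Aurkc and Cdca8 were set to the floor of 16. Their SD in kidney was therefore 0, and no p is given for them. A second Cdca8 probe was above noise on no array of either tissue. Cdca7l and Cdca7, related nuclear proteins, were also lower in kidney, Cdca7l by at least 3.54-fold and Cdca7 with a log2 difference of −1.46 ± 0.16. Bub1, the spindle checkpoint kinase, was near noise in both tissues and did not pass the test (adjusted p = 0.551), nor did the APC/C subunit genes Cdc26 and Cdc27 (adjusted p = 0.616 and 0.597).

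The switch into S phase and licensing lay the same way. Cdc25a, the phosphatase that activates Cdk2 and Cdk1, gave 54.41, 101.8 and 90.67 in kidney and 2084, 2275 and 1999 in testis, a log2 difference of −3.36 ± 0.19 (adjusted p = 6.86e-12). Mcm7, a subunit of the replicative helicase, gave 148.4, 128 and 94.13 in kidney and 2484, 2344 and 2130 in testis, a difference of −2.82 ± 0.18 (adjusted p = 4.38e-11). Both genes were measured in both tissues, and neither pair of groups overlapped. The origin factor Cdc6 was at least 2.01-fold lower in kidney, and Ccne2, the cyclin E2 gene, at least 1.37-fold. Ccnb1, encoding the mitotic cyclin B1, was above noise on 1 of the 3 control testis arrays (62.64, 199.4 and 83.81) and on no control kidney array, so no fold is given for it.

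Among kinases with Cdk-like names, Cdk20, Cdk19, Cdkl2 and Cdkl3 were lower in kidney and Cdk8 higher, while Cdk10, Cdk12 and Cdkl1 did not pass. Cdk20, a kinase known from cilium control, gave 405.5, 409.1 and 299.5 in kidney against 7071, 6294 and 5135 in testis and was the brightest member in testis. Its log2 difference was −2.65 ± 0.15 (adjusted p = 6.58e-12). Cdkl2 differed by −2.67 ± 0.14, and Cdkl3 was at least 18.6-fold lower in kidney by its brighter probe and at least 9.21-fold by the other. Cdkn3, a phosphatase that acts on Cdk2, was at least 1.55-fold lower, and Cdc42ep3, a Cdc42 effector, differed by −3.32 ± 0.37 (adjusted p = 1.36e-07). In the joint normalization Cdk10 and Ccnh, the cyclin of the Cdk-activating kinase, did not pass the test (adjusted p = 0.0553 for the brighter Cdk10 probe and 0.234 for Ccnh).

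Ccnd1 lay in the other direction. Its brightest probe gave 5463, 5836 and 5119 in kidney and 355.2, 265.3 and 323.7 in testis, a log2 difference of +5.37 ± 0.17 (adjusted p = 3.97e-16). The 2 other Ccnd1 probes were below noise on all control testis arrays. In the joint normalization they were at least 15.7-fold and at least 3.29-fold higher in kidney. The D cyclin gene Ccnd3 did not pass the test (−0.38 ± 0.20, adjusted p = 0.0942). E2f6, a repressor of the E2F family, differed by +2.61 ± 0.27 (adjusted p = 6.05e-08), and E2f3 by +1.41 ± 0.41 (adjusted p = 0.00479), which under normalization within each tissue was +0.09 with an adjusted p of 0.879.

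Other members higher in kidney had varied roles. Cdc42, the small GTPase of cell polarity, gave 1339, 1571 and 1578 in kidney and 1156, 1004 and 1144 in testis (+1.81 ± 0.14, adjusted p = 4.42e-10). Its effectors Cdc42ep2 and Cdc42bpg differed by +3.14 ± 0.47 and +2.50 ± 0.27, and the phosphatase gene Cdc14b by +2.05 ± 0.28. Cdk2ap1, a partner of Cdk2, differed by +1.18 ± 0.10 in the joint normalization and by −0.12 with each tissue normalized by itself. Cdk8, a kinase of the Mediator complex, turned in the same way, with +1.05 ± 0.30 and −0.30. The splicing factor genes Cdc40 (+0.96 and −0.37) and Cdc5l, probe 3390025 (+1.15 and −0.10), and E2f6, probe 4070324 (+1.04 and −0.26), also turned, so none of these 5 probes has a settled side.

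Of the 9 genes with more than 1 probe in the tissue test, 6 had all probes on one side in the joint normalization. Cdc37l1, which encodes a relative of the co-chaperone Cdc37, did not: probe 1940132 was higher in kidney (+2.79 ± 0.38, adjusted p = 1.69e-06) with 585.4, 465.8 and 429.7 in kidney and 228.5, 142.4 and 169.9 in testis. Probe 4060176 was lower in kidney (−2.27 ± 0.12, adjusted p = 1.53e-12) with 270.4, 334.9 and 329.7 in kidney and 4086, 4385 and 3715 in testis. The other 2 genes, Cdc5l and Cdk10, had a probe near 0 on each side.

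Other genes of the cycle that the symbols did not select gave the following counts. Of 10 probes for further mitosis genes, 8 were lower in kidney and 0 higher, among them the transcription factor gene Foxm1 (at least 9.61-fold), Nusap1 (at least 14-fold) and the survivin gene Birc5 (at least 13.8-fold and 7.52-fold by 2 probes and −4.43 ± 0.17 by the third), with kidney below noise where a bound is given. Of the probes for the proliferation marker Mki67, 1 passed (−1.01 ± 0.26) and the other did not (−0.24 ± 0.45). Of 12 replication probes, 7 were lower in kidney, with Uhrf1 at −4.82 ± 0.33, and 3 were higher, Orc3 (at least 5.28-fold), Rfc5 (+1.66 ± 0.20) and Rpa3 (+1.00 ± 0.22). Of 7 further G1 and checkpoint probes, 3 were lower: Skp2 by at least 22.3-fold, Fzr1 (−0.782 ± 0.185) and Tfdp1 (−0.763 ± 0.244). The 3 higher were Tfdp2 (+1.370 ± 0.353) and the APC/C subunit genes Anapc5 (+0.914 ± 0.093) and Anapc13 (+0.753 ± 0.121). The APC/C subunit gene Anapc1 did not pass (−0.021 ± 0.187). The shares of all probes that passed were 32.7% lower and 40.6% higher in kidney. Here too a probe above noise in testis alone entered the test through testis, so the filter set its side. All of these values come from the joint normalization. With each tissue normalized by itself the median over all probes moved from +0.28 to −0.97, a change that turned 5 member probes. The side of Rfc5, Rpa3, Tfdp2, Anapc5 and Anapc13 under that setting was not tested. The deposited Anapc5 signal was 4775, 4233 and 3737 in control kidney and 5592, 5608 and 5349 in control testis.

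Irradiation was tested in each tissue by itself. In kidney, 0 of 32 member probes passed an adjusted p of 0.05 against control at any dose rate, where 0%, 0.0183% and 0.468% of the 10903 probes tested passed at the low, mid and high dose rate. None passed the F test over the 4 groups or the trend over dose rate either (0.413% and 1.06% of all probes), and at an unadjusted p under 0.05 these gave 4 and 3 members, where 14.7% and 13.5% of all probes passed. The smallest adjusted p of a member was 0.696 at the low, 0.209 at the mid and 0.268 at the high dose rate. At an unadjusted p under 0.05 in limma, 0, 9 and 2 members passed at the low, mid and high dose rate, where 7.05%, 13.3% and 12.2% of all probes did. The 9 at the mid dose rate were 28.1% of the members, 4 above and 5 below control. The median member difference from control was −0.01, −0.05 and −0.03 on the log2 scale, and over all probes it was −0.01, −0.01 and 0. The typical SE of a member was 0.15.

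**Figure D2:**
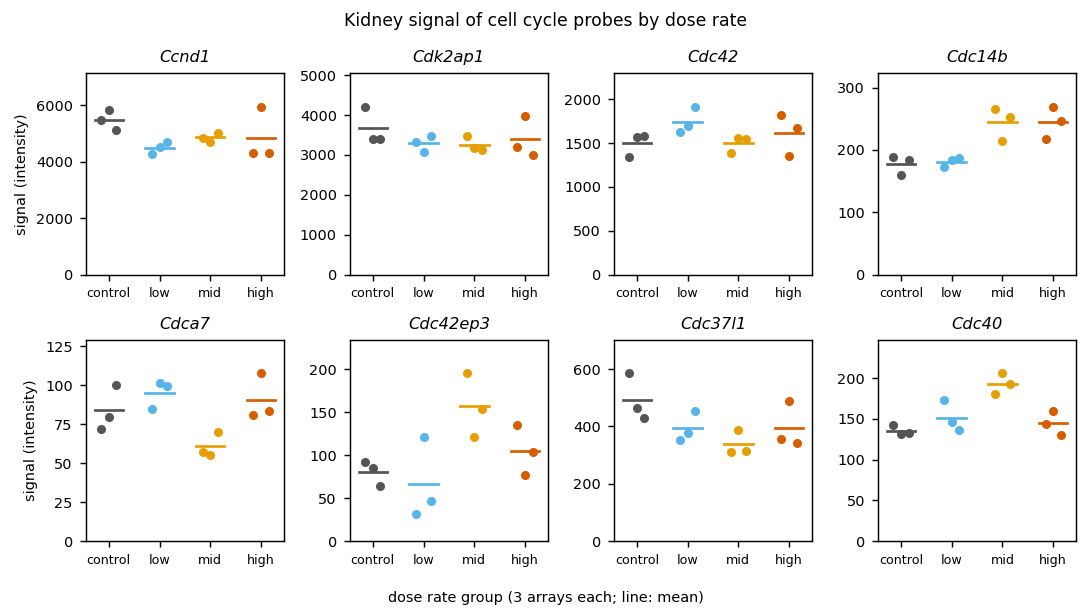
Kidney signal (intensity, linear axis from 0) of 8 member probes on each array by dose rate group, with the group mean as a line: the brightest probes Ccnd1, Cdk2ap1 and Cdc42, and the 5 members with the smallest p of the F test. Cdc14b lay higher on all mid and high arrays than on all control and low arrays, and Cdc40 on all mid arrays than on all others.

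Among bright kidney members the groups lay close together. Ccnd1 gave 5463, 5836 and 5119 in control, 4289, 4523 and 4685 at the low, 4855, 4714 and 5008 at the mid and 4294, 5945 and 4310 at the high dose rate. The low and mid arrays lay below all control arrays and the high arrays overlapped them, and the largest difference from control was −0.26 ± 0.12 at the low dose rate (adjusted p = 0.696). Cdk2ap1 ranged from 3001 to 4207 and Cdc42 from 1339 to 1913 over all arrays, with adjusted p of at least 0.726 and 0.737 against control. Mcm7 ranged from 94.13 to 179.1 and Plk1 from 70.78 to 135.2, and control and irradiated arrays overlapped at each dose rate for both genes.

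Cdc14b, a phosphatase of the family that in yeast ends mitosis, had the smallest F test p of the kidney members. Its signals were 189.3, 159.1 and 184.2 in control, 172.1, 184 and 186.8 at the low, 265.9, 214.4 and 253.7 at the mid and 218, 269.3 and 246.4 at the high dose rate. No mid or high array overlapped a control array. The differences of +0.36 ± 0.14 at the mid and +0.38 ± 0.14 at the high dose rate had adjusted p of 0.288 and 0.268, and the trend an adjusted p of 0.133.

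Cdca7 gave 57.37, 55.06 and 69.84 at the mid dose rate and 72.21, 79.87 and 99.88 in control (−0.39 ± 0.15, adjusted p = 0.295), and at the low and high dose rates it overlapped the control range. Cdc40, the splicing factor gene, gave 180.5, 205.9 and 192.3 at the mid dose rate and 142.6, 130.9 and 132.6 in control (+0.39 ± 0.13, adjusted p = 0.244). In both genes the mid arrays alone stood apart from control. Cdc42ep3 gave 195.2, 121.5 and 153.4 at the mid dose rate and 92.34, 85.36 and 64.18 in control (+0.77 ± 0.34, adjusted p = 0.356), and its low arrays scattered from 31.74 to 120.7. Cdc37l1, probe 1940132, gave 310.3, 389 and 316 at the mid dose rate and 585.4, 465.8 and 429.7 in control (−0.56 ± 0.17, adjusted p = 0.209). The high arrays of Cdc37l1 (357, 487.7 and 342.8) overlapped control.

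The remaining kidney members with an unadjusted p under 0.05, named after their values were seen, were Cdc42bpg (+0.28 ± 0.13), E2f3 (−0.41 ± 0.15), Cdk10 (probe 3130128, −0.25 ± 0.11) and Cdk19 (−0.29 ± 0.12) at the mid dose rate and Cdc42ep2 at the high dose rate. Cdc42ep2 gave 168.1, 197.9 and 187.1 at the high dose rate and 236.4, 211.6 and 249.6 in control (−0.34 ± 0.12, adjusted p = 0.274). Members whose normalized levels did not overlap with control numbered 3 at the low, 8 at the mid and 3 at the high dose rate (9.38%, 25% and 9.38%), against 12.3%, 20.8% and 13.8% of all probes. Mid arrays detected 10183 to 10985 probes, against 8879 to 9846 in control. The summed signal of 3 lymphocyte probes ran from 7466 to 9208 in control, 10140 to 16360 at the low, 9036 to 18230 at the mid and 2527 to 13520 at the high dose rate. The sum of 7 macrophage probes was 2873 to 3761 in control, 4458 to 7364 at the low, 3598 to 4538 at the mid and 3026 to 4567 at the high dose rate, and that of 7 nephron probes was 42840 to 49070, 37840 to 43760, 35940 to 39920 and 39280 to 46860 in the same order. At the mid dose rate the nephron sum therefore lay below every control array, and at the low dose rate the macrophage and lymphocyte sums lay above. Their part in the values of these members was not tested.

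Between irradiated kidney groups 0 members passed as well, where 0.0183% of all probes passed for mid against low, 0.138% for high against low and 0.0183% for high against mid. At an unadjusted p under 0.05 these comparisons gave 6, 3 and 3 members, where 13.2%, 12.9% and 7.64% of all probes passed. The smallest adjusted p was 0.171, of Cdc42ep3 for mid against low (+1.17 ± 0.34). Without low replicate 3, its brightest low array, Cdc42ep3 passed (adjusted p = 0.0456), so that call rests on 1 array. Ccnh likewise passed the kidney trend test without control replicate 2 (adjusted p = 0.0249), which read 289.4 against 157.8 and 177 on the other control arrays, and had an adjusted p of 0.361 with all arrays.

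**Figure D3:**
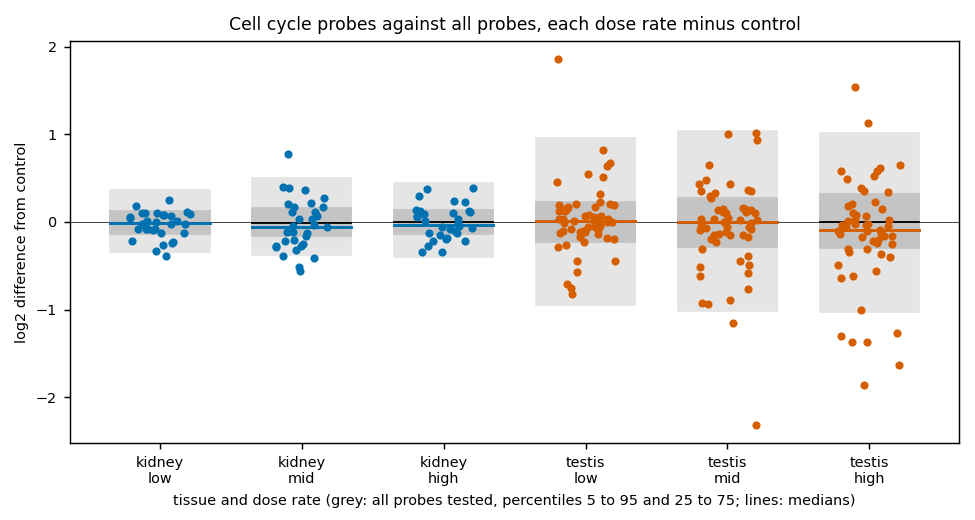
Log2 difference from control of each member probe tested (points; 32 in kidney, 56 in testis) at each dose rate, over grey boxes that hold percentiles 5 to 95 and 25 to 75 of all probes tested, with the medians as lines. The member medians lie within 0.1 of 0 in all 6 comparisons, and at the high dose rate in testis 35 of 56 points lie below 0.

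In testis, 0 of 56 member probes passed an adjusted p of 0.05 against control, where 0.0174%, 0.0521% and 0.0174% of 28816 probes passed at the low, mid and high dose rate. None passed the F test or the trend (0.0902% and 0% of all probes; at an unadjusted p under 0.05 the F test gave 7 members, where 9.02% of all probes passed), and the smallest adjusted p of a member was 0.253, of Cdca8 in the trend. At an unadjusted p under 0.05, 1, 7 and 8 members passed (1.79%, 12.5% and 14.3%), against 4.36%, 7.73% and 9.69% of all probes. All 8 at the high dose rate lay below control, where all probes were divided evenly (4.89% higher, 4.8% lower). The trend gave 11 members at that limit (19.6%, against 10.6% of all probes), 10 of them with a negative slope. Members whose levels did not overlap with control numbered 9, 8 and 14 (16.1%, 14.3% and 25%), against 8.93%, 14.5% and 15.9% of all probes. Of the 14 at the high dose rate 11 were lower, while 8.04% of all probes did not overlap and were lower. Several of these probes share a gene, 3 of the 11 being those of Cdc20.

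**Figure D4:**
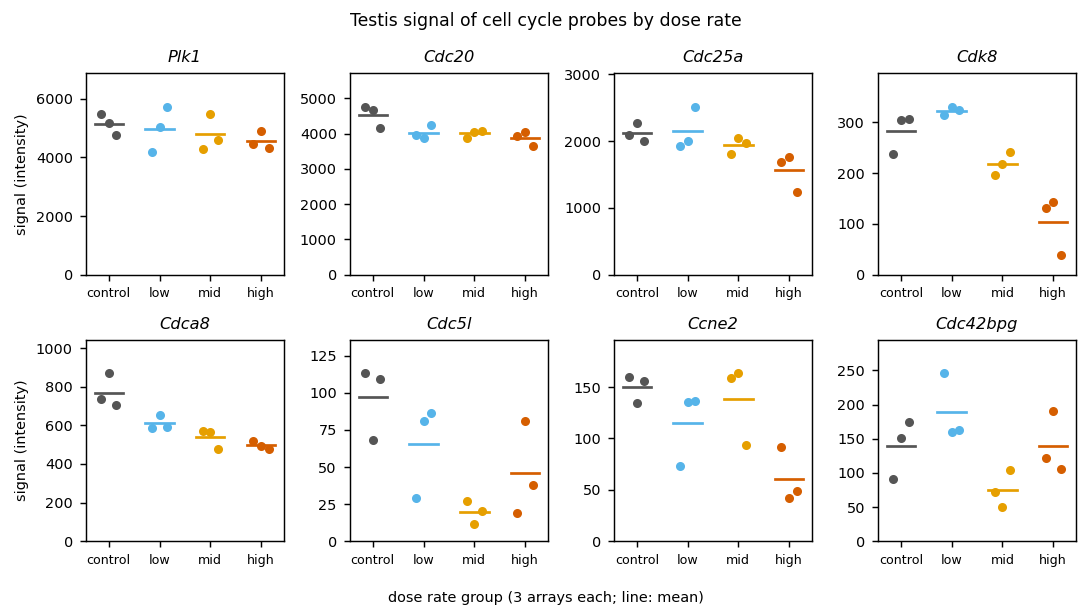
Testis signal (intensity, linear axis from 0) of 8 member probes on each array by dose rate group, with the group mean as a line: the bright cycle genes Plk1, Cdc20 and Cdc25a, and the 5 members with the smallest p of the F test. Plk1 overlapped between all groups, whereas Cdc20, Cdc25a, Cdca8, Cdk8 and Ccne2 had all high arrays below all control arrays.

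Among bright testis members, Plk1, Cdk20 and Mcm7 differed little from control at the high dose rate. The brightest Cdc20 probe, given below, had all high arrays below all control arrays. Plk1 gave 5483, 5174 and 4769 in control, 4174, 5046 and 5727 at the low, 4290, 5468 and 4606 at the mid and 4457, 4914 and 4322 at the high dose rate. The groups overlapped at each dose rate, and at the high dose rate the difference was −0.09 ± 0.15 (adjusted p = 0.895). These values are of the bright Plk1 probe. A dim probe, 2640121, also entered the testis test but was above noise on 1 testis array alone. Cdk20 ranged from 4879 to 7071 over all arrays, with −0.04 ± 0.14 at the high dose rate (adjusted p = 0.964), and Mcm7 from 1935 to 2842, with −0.04 ± 0.13 (adjusted p = 0.962).

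Cdca8, whose protein borealin holds the passenger complex at centromeres, had the smallest trend p. It gave 733.8, 869.2 and 702.6 in control, 584.1, 652.6 and 593.5 at the low, 571.4, 564.2 and 475.9 at the mid and 517.8, 491.2 and 478.1 at the high dose rate. Every irradiated array lay below every control array. The differences were −0.29 ± 0.14, −0.49 ± 0.14 and −0.56 ± 0.14, with adjusted p of 1.0, 0.334 and 0.295 against an unadjusted p of 0.0601, 0.00512 and 0.00244, in the limma fit over all probes. The same control arrays enter all of these comparisons.

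Cdc20 had 3 probes bright enough to test. Probe 3440044 gave 3923, 4035 and 3643 at the high dose rate and 4762, 4685 and 4151 in control, a difference of −0.14 ± 0.11 (adjusted p = 0.743). Probe 3440017 gave 373, 383.9 and 360.1 at the high dose rate and 623.7, 494.1 and 513.4 in control (−0.49 ± 0.17, adjusted p = 0.433). Probe 6220088 gave 434.2, 393.7 and 413.9 at the high dose rate and 575.6, 537.8 and 486.2 in control (−0.31 ± 0.14, adjusted p = 0.526). All 3 probes lay below control without overlap, by sizes that differ up to several times on the log2 scale, and none passed the threshold.

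Cdc25a gave 1684, 1758 and 1240 at the high dose rate and 2084, 2275 and 1999 in control (−0.36 ± 0.16, adjusted p = 0.512), with overlap at the low and mid dose rates. Cdkl3, probe 5890075, gave 1701, 1675 and 1418 at the high dose rate and 2299, 2045 and 2123 in control (−0.34 ± 0.12, adjusted p = 0.433), and its other probe differed by −0.16 ± 0.13. Aurkc gave 1492, 1263 and 1203 at the high dose rate and 1680, 1901 and 1447 in control, groups that overlap (−0.24 ± 0.15, adjusted p = 0.637).

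Cdk8 had the smallest F test p in testis. Its probe gave 238.8, 304.1 and 307.5 in control, 315.2, 330.9 and 324.2 at the low, 196.8, 219.1 and 241.5 at the mid and 131.1, 143.7 and 38.84 at the high dose rate. All high arrays lay below all others, and 1 of them (38.84) was below its noise limit. The difference at the high dose rate was −1.64 ± 0.40 (adjusted p = 0.295), where that dim array weighs heavily on the log2 scale. A second Cdk8 probe was below noise on all arrays.

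Ccne2 gave 92.2, 41.82 and 48.7 at the high dose rate and 160.1, 134.9 and 156 in control (−1.37 ± 0.36, adjusted p = 0.299). Its high arrays were all below noise, so that the level there is only a bound. Cdk10, probe 1190717, gave 105.3, 47.13 and 1.888 at the high dose rate, also below noise, and 135.3, 182.4 and 151.3 in control (−1.86 ± 0.61, adjusted p = 0.395). The brighter Cdk10 probe, 3130128, differed by −0.10 ± 0.15. Cdc5l behaved alike: dim probe 6400204 gave 27.4, 11.75 and 20.51 at the mid dose rate, below noise, and 113.2, 68.31 and 109.3 in control (−2.32 ± 0.56, adjusted p = 0.254), while its bright probe 3130446 differed by +0.15 ± 0.13.

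Noise was uneven between the groups. The noise limit was 93 to 109.4 in control, 84.5 to 100.6 at the low, 98.6 to 105.5 at the mid and 110.4 to 133.6 at the high dose rate. The high arrays had 12552 to 13786 probes above it, against 13472 to 15137 in control. Among the 29 member probes above noise on all 12 testis arrays, 20 lay below control at the high dose rate and 9 above it, with a median difference of −0.10, and 51.3% of the 10246 probes of that kind lay below 0. Of these 29 member probes, which stand for 25 genes, 7 (24.1%) were lower without overlap, against 12.9% of those 10246 probes. The 3 probes of Cdc20 are among the 7, so they are not 7 separate genes. At the low and mid dose rates 13 and 15 of the 29 lay below control. The summed signals of 4 spermatid probes (116800 to 129600 at the high dose rate, 113700 to 128400 in control) and of 5 Leydig cell probes (7973 to 11160 at the high dose rate, 9460 to 11810 in control) overlapped, and Prm2, Odf2 and Gapdhs, the spermatid genes measured, were above noise on every testis array. Their part in these values was not tested.

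The last of the 5 testis members with the smallest F test p was Cdc42bpg, a kinase that acts downstream of Cdc42. It gave 72.66, 49.84 and 104.1 at the mid dose rate and 90.65, 151.7 and 174.9 in control (−0.93 ± 0.35, adjusted p = 0.57), and low and high arrays overlapped control. At the mid dose rate Ccnh gave 849, 747.1 and 864.4, against 664.7, 572.8 and 697.8 in control (+0.37 ± 0.14, adjusted p = 0.563). Between irradiated testis groups 0 members passed (0.0694% of all probes for mid against low, 0.0243% for high against low and 0.0972% for high against mid; 5, 8 and 10 members at an unadjusted p under 0.05, where 7.26%, 9.9% and 8.2% of all probes passed), with a smallest adjusted p of 0.232, of Cdk8 for high against low (−1.83 ± 0.40).

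Of the fixed lists of further replication, mitosis, G1 and checkpoint genes, no probe passed against control in either tissue.

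The dose rate effect in kidney minus that in testis was tested for 54 member probes. None passed at the low or mid dose rate (0% and 0.0427% of all probes; 5 and 7 members at an unadjusted p under 0.05, where 5.23% and 7.74% of all probes passed) and 1 passed at the high dose rate (1.85% of the members, 0.076% of all probes). It was Cdca7l, at 1.61 ± 0.24 (adjusted p = 0.0151). In kidney Cdca7l gave 50.46, 36.41 and 54.31 at the high dose rate and 15.56, 16.51 and 21.14 in control, and its detection scores kept it out of the kidney test. High replicates 1 and 3 lay above the noise limits of their arrays (43.4 and 43.6), and high replicate 2 and all control arrays below theirs (50.6, and 41.8 to 47.1 in control). In testis it gave 309.8, 393.9 and 319 at the high dose rate and 462.1, 421.2 and 341.8 in control, which overlap. The call was lost with a signal floor of 64 in place of 16 (0.22, adjusted p = 0.495), under median scaling (adjusted p = 0.0669), and without kidney control replicate 2 or 3 or kidney high replicate 1 (adjusted p = 0.0768, 0.0506 and 0.0579).

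The spread between arrays set what could be seen. The median SD of a member within a group was 0.18 in kidney and 0.31 in testis on the log2 scale (0.20 and 0.60 over all probes tested). Over the members it ran from 0.09 to 0.49 in kidney and from 0.05 to 1.15 in testis, where the dim probes had the largest values. Array correlations within a group (0.961 to 0.991 in kidney, 0.921 to 0.934 in testis) were close to those between groups (0.958 to 0.986 and 0.914 to 0.934).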

How the data were processed

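RNA from 12 kidney and 12 testis samples was read on Illumina Mouse-6 bead arrays after labelling with biotin. Per the file headers, the authors exported the kidney table from BeadStudio 1.5.0.34 after rank-invariant normalization. The deposited kidney signal is a linear intensity from which background had been subtracted. Its detection score per probe and array is a fraction from 0 to 1, as deposited. Bead numbers were deposited in the same table and served to describe the arrays, and its 23 other per-sample columns were not used. Testis signals are the deposited intensity of the series value table; the sources used here do not say how the authors normalized them. Samples are labelled as biological replicates. Were the tissues taken from shared mice, tests across tissues would treat related arrays as independent.

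Zero-padded numbers in the target identifiers were read as NCBI gene IDs (82.6% of 11897 were mouse gene IDs of the GRCm38.p6 table). For 508 symbols with exactly 2 probes, the kidney minus testis difference of the 2 probes had r = 0.67 across genes, which are not independent replicates.

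All fits used limma 3.58.1 (R 4.3.3). Kidney signals were corrected with normexp, with noise estimated from probes with scores of 0.05 to 0.95, an offset of 16 and quantile normalization. Testis signals under 16 were set to 16, put on a log2 scale and quantile normalized; probes above the array median on at least 3 arrays were kept. The tissue comparison used the value table with all 24 arrays quantile normalized together, over probes above the noise limit (percentile 99 of the mirrored negative values) on at least 3 arrays. The noise limit also sets the bounds written as at least a fold. These bounds hold for the joint normalization and were not computed with each tissue normalized by itself. The 12 arrays of a tissue shared a fit, and p was adjusted by Benjamini-Hochberg over all probes tested, with 0.05 as the threshold. A log2 difference carries the limma SE, and every log2 difference is on the floored or offset scale. For dim probes its size depends on the floor, which lies below the noise limits. With a floor of 64 in place of 16, Ccnb1 went from −2.061 to −0.403 in the tissue comparison and lost its call. The number of arrays limits the precision.

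Members and gene lists were chosen with earlier results of these data known. Genes were named if past the threshold against control, in the F test or in the trend, if among the 5 smallest F test p in a tissue, if among the 12 largest called tissue differences in a direction, or as bright examples of a role. Other genes with an unadjusted p under 0.05 were named after their values were seen.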

Additional observations from a re-analysis of the deposited data

Results flagged for a closer look

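Cdca7l was singled out because its high dose rate effect differed between the tissues by a test of that difference, 1.61 ± 0.24 on the log2 scale (kidney minus testis, adjusted p = 0.0151). Kidney signals of 50.46, 36.41 and 54.31 at the high dose rate and 15.56, 16.51 and 21.14 in control were low: high replicates 1 and 3 lay above the noise limits of their arrays, and high replicate 2 and all control arrays below theirs.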

How the results depend on the processing

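The count of members called against control stayed at 0 in both tissues under every alternative run, which covered plain neqc noise, no further background correction, median scaling, no normalization between arrays, other floors and filters, fits of the 2 groups compared and leaving out each array. Leaving out 1 array at a time gave 0 to 1 members between irradiated kidney groups (Cdc42ep3, without low replicate 3) and 0 to 1 in the kidney trend (Ccnh, without control replicate 2). In the tissue comparison 37 to 38 members were called without 1 array, 14 to 15 of them higher and 23 to 24 lower in kidney; with each tissue normalized by itself 9 were higher. That setting turned Cdk8 to −0.299, Cdk2ap1 to −0.121, Cdc5l (probe 3390025) to −0.104, E2f6 (probe 4070324) to −0.264 and Cdc40 to −0.365. The call for Cdc5l was also lost without kidney control replicate 2 or 3 or 1 testis control array (1.15 with all arrays, 0.52 to 1.59 without one), and that for E2f6 without kidney control replicate 4 or testis control replicate 110 (0.888 and 0.879). Over the 38 named tissue probes, 423 of 428 values under alternatives kept their direction and 410 their call. These 38 were the probes called in the main setting, so calls gained under an alternative are not followed. With each tissue normalized by itself 31 members were called lower in kidney, against 23 in the main setting. Members called for the difference between tissues in dose rate effect numbered 0 under median scaling, 3 with a floor of 64 (added after seeing the data; Cdca8 and Cdk8, not Cdca7l), and 0 to 3 without 1 array (also added after seeing the data); Cdca7l itself ran from 1.47 to 1.81 without 1 array. A fit with the kidney replicate number as a block called 0 members against control. Same-numbered arrays deviated together (r over 0.1) in 9 of 13 pairs, not in all. Of the 12 kidney arrays, 8 correlated best with an array of their own number, a hint from the data that no label bears on. Some differently numbered pairs also had r over 0.1. The highest r of any pair, 0.458, was between control replicate 2 and mid replicate 1.

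The counts over all probes that stand as background moved widely: in kidney 2 at the mid dose rate (0 to 43 over alternatives), 51 at the high (0 to 207), 45 in the F test (1 to 211), 116 in the trend (0 to 370) and 19 between irradiated groups (2 to 348); in testis 5 at the low (0 to 31), 15 at the mid (0 to 54), 5 at the high (0 to 66), 26 in the F test (0 to 76), 0 in the trend (0 to 24) and 55 between irradiated groups (0 to 116); for the tissue difference in effect 25 (2 to 303). With the replicate block, 1 probe passed at the mid and 17 at the high kidney dose rate. The causes were not tested. For dim testis probes the floor sets the log2 scale, which limits their values.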
